A study of Mus musculus with 37 samples.

Results

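Upstream open reading frames (uORFs) of 10 to 29 codons were examined in dendritic cells, which take up antigen and show it to T cells, grown in culture from mouse bone marrow. An open reading frame (ORF) is the stretch from a start codon to the next in-frame stop codon, its length in codons leaves out the stop, and the list examined here holds 22367 ORFs that the study called translated from ribosome footprints, the RNA fragments that ribosomes shield from nuclease. The ORFs were grouped into 10418 families by gene or transcript name. In each family, chromosome and strand, the ORF with the most codons was taken as the main ORF, and an ORF that stopped before the main start was called upstream. Of 2857 upstream ORFs, 1125 had 10 to 29 codons (39.4%, 95% Clopper-Pearson interval 37.6 to 41.2), which is 5.03% of the list. They lay in 855 families (8.21%, interval 7.69 to 8.75) and used 1119 distinct start codons and 1050 distinct stop codons.

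The 37 libraries came from C57BL/6J mice of 6 to 8 weeks. Cells were stimulated with 100 ng/mL lipopolysaccharide (LPS), a bacterial cell wall component sensed by Toll-like receptor 4, for 8 times from 0.5 to 12 h, or were mock-treated or naive. Cycloheximide, which arrests elongating ribosomes (100 ug/mL, 1 min), was used in 16 LPS, 8 mock and 2 naive libraries, and no inhibitor in 8 LPS libraries and 1 naive library. Harringtonine (1 ug/mL, 5 min) and lactimidomycin (50 ug/mL, 30 min), which hold ribosomes at the start of ORFs, were each used for 1 library that mixed several LPS times. A single list was made for all libraries, so it gives no value per library, the depth per library is unknown, and neither LPS against mock nor 1 inhibitor against another can be compared. No test is given, because ORFs of 1 list are not replicates. Intervals cover counting error only. Of 14 dendritic cell markers, 13 had an ORF in the list, and Flt3 had none. Markers of other cells were listed too, with 11 of 11 macrophage, 13 of 13 neutrophil and 7 of 17 lymphocyte, mast cell and fibroblast genes. Presence in the list thus cannot identify the cell type. The list cannot tell footprints of different cells apart, and the part of such cells in the results was not tested.

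A ribosome that scans from the cap of an mRNA can start on a short upstream ORF before it reaches the coding sequence. After the stop codon it may leave the mRNA or resume scanning and start again, and in general longer upstream ORFs and shorter spacers leave less room for that. Upstream ORFs are thus known mainly as elements that lower translation of the main ORF, and in some stress response genes they direct ribosomes to it when initiation is limited. In immune cells they occur in genes for receptors, kinases and feedback inhibitors.

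Start codons could be read for a small part of these ORFs. The list gives positions in the mm9 build and no bases, and a genome of that build was not used here. The RefSeq promoter table (GRCm38.p6) holds the first 50 transcribed bases of each gene, and the distance from transcript start to ORF start is in the list, so the base at that distance was read without converting coordinates. It was assumed that both sources begin the transcript at the same base. Of the 1125 ORFs, 108 (9.60%) started within reach of the window, and 66 of them belonged to genes with 1 entry in the table. ATG stood at the listed start in 32 of the 66 (48.5%), while ATG took 2.11% of all positions in the same windows. CTG stood there in 2, and GTG or TTG in none. The same reading gave ATG for 526 of 893 main ORFs within reach (58.9%). In all 32 upstream ORFs with ATG, no in-frame stop codon came before the end of the window. For the 1 that ended inside it, none came before the listed stop. The window held few codons of some ORFs, such as 5 in Htt, so an open frame there says little. Where ATG was not found, a different transcript start and a different start codon cannot be told apart.

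The start sites below are shown because the start codon and the bases around it define where such an ORF begins. They are the 8 with the highest authors' score among 22 ORFs for which 9 bases before and 12 after the start codon lay in exon 1. Each line runs 5′ to 3′ on the gene's strand, with the start codon in capitals.
Etaa1, chr11:17953849-17953872, minus strand: cttgcaaagATGgcgctgcacggt
B4galt3, chr1:171270346-171270369, plus strand: gcttccaagATGgctgcagcgata
Wdr82, chr9:106170941-106170964, plus strand: cccttcaagATGgcggacacaatg
Megf9, chr4:70534900-70534923, minus strand: gaggtggcgATGgtgctcttggtg
Zfyve26, chr12:79296254-79296277, minus strand: ggatcaaacATGgctgctctggac
Taf3, chr2:10048571-10048594, minus strand: gagtccaaaATGgcggctctcagg
Zfp869, chr8:69716866-69716889, minus strand: tccgccgccATGctgcagattctg
Mief1, chr15:80234099-80234122, plus strand: agaggggccATGttgatgggtgac
These coordinates are GRCm38.p6, counted from 1, and all others in the text are mm9. A purine stood 3 bases before the ATG in 28 of the 32 ORFs (87.5%) and a G right after it in 24 (75%). Both are features of a favourable start context as Kozak described it. Shares of these 2 features at other ATGs are not given here, so they are a description only. The letters ATGGCG began 9 of the 31 ORFs for which they could be read (29%), and AAGATGG stood over the start in 9 of 31. Both motifs contain ATGG, so 1 site can hold both. Among ATG starts of main ORFs read the same way, the shares were 38.9% and 17.5% of 496, and for every ATG in the first 50 bases of 22862 genes with 1 entry they were 4.99% and 2.82%. On either strand, ATGGCG occurred in the first 50 bases of 3.81% of these genes and AAGATGG in 1.99%. A match of letters is a description and shows no binding or initiation by itself.

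Etaa1, a replication stress response factor, carried a 22-codon ORF that began 12 bases after its transcript start, scored 970 and stopped 27 bases before an 868-codon main ORF. In Wdr82, a subunit of histone methyltransferase complexes, the ORF had 13 codons, a score of 952 and a spacer of 227 bases. The 14-codon ORF of Taf3, a subunit of the general transcription factor TFIID, scored 842 with 140 bases to the main start. Mief1, a mitochondrial fission factor, had a 19-codon ORF 28 bases from the transcript start with a score of 833. Its own main ORF of 463 codons scored 848.

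Numbers fell off slowly with length inside the range. The median was 17 codons, with 377 ORFs of 10 to 14 codons (33.5%), 319 of 15 to 19 (28.4%), 254 of 20 to 24 (22.6%) and 175 of 25 to 29 (15.6%). Across the lower limit, 96 upstream ORFs had 9 codons and 76 had 10, with median scores of 775.5 and 779. Across the upper limit, 31 had 29 codons and 31 had 30, with median scores of 731 and 675. Neither limit thus lay at a gap in the lengths. The limits are those of the definition, so the lengths are a description.

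**Figure D1:**
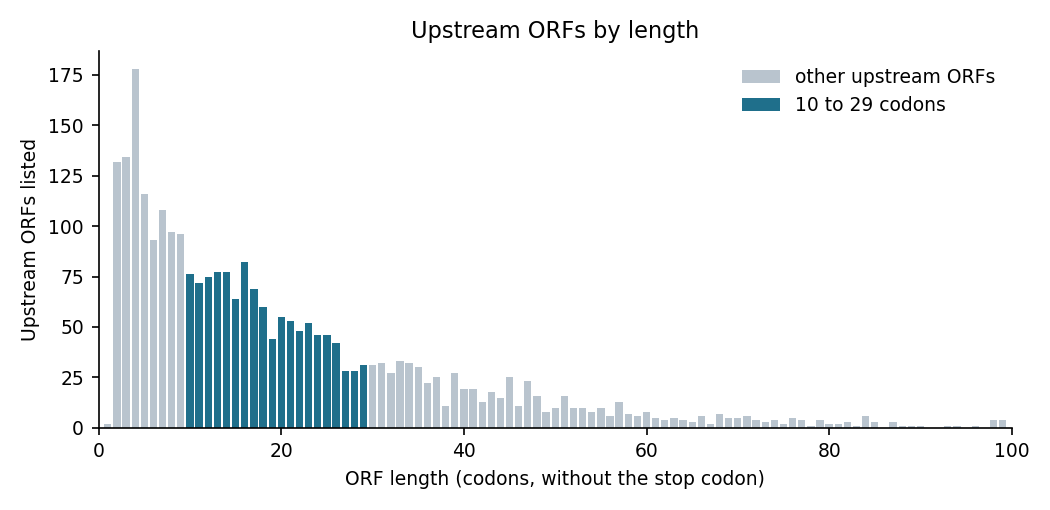
Number of listed upstream ORFs (y axis) at each length in codons (x axis), with those of 10 to 29 codons in blue-green. The bars run from 76 ORFs at 10 codons to 31 at 29 codons, with 82 at 16 codons, and continue without a break on both sides.

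Scores covered the whole range of the list. The score is a whole number given to each ORF by the authors, from 500 to 991 in this list, and its formula is not given in the sources used here. Upstream ORFs of 10 to 29 codons had a median score of 771 (interval 762 to 784) and quartiles of 630 and 891. Their median lay between those of upstream ORFs under 10 codons (800, interval 795 to 810, 956 ORFs) and of 30 to 99 codons (718, interval 699 to 745, 654 ORFs), and these 3 intervals did not overlap. Main ORFs had a median of 926 (interval 922 to 927). A score of 900 or more was reached by 271 of 1125 (24.1%, interval 21.6 to 26.7), beside 41.2% of all ORFs in the list, 29.7% of the shorter and 16.8% of the longer upstream ORFs, and 56.7% of main ORFs.

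**Figure D2:**
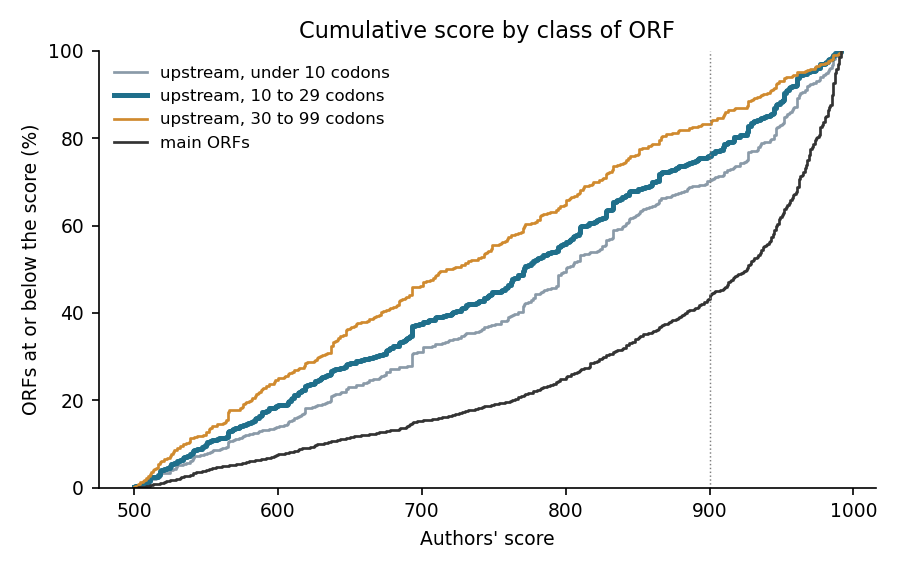
Cumulative share of ORFs (y axis, percent) at or below each authors' score (x axis) for 3 length classes of upstream ORFs and for main ORFs, with a dotted line at 900. From 550 to 950 the curve of upstream ORFs of 10 to 29 codons lies between those of the shorter and the longer ones, near both ends of the scale it leaves that band, and the main ORFs lie to the right of all 3.

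Within the range, length and score were nearly unrelated. The median score was 767 at 10 to 14 codons, 805 at 15 to 19, 760 at 20 to 24 and 770 at 25 to 29. Across the 1125 ORFs, Spearman's correlation between score and codons was -0.02 and Pearson's r -0.03, as a description of ORFs that partly share genes and stop codons. ORFs without an intron in their coding span had a median of 776 and those with an intron 738.5, with intervals of 767 to 795 and 709 to 777 that overlapped.

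Of the 3 ORFs with the highest score of the list, 991, one was in Csf2rb, the common beta chain of the receptors for GM-CSF and interleukin 3. It had 11 codons at chromosome 15, 78165497 to 78165532, and stopped 104 bases before the 896-codon main ORF, which scored 947. An additional Csf2rb ORF of 17 codons, scoring 803, lay 1 base further on and ended 49 bases before the main start. The remaining pair were a 20-codon ORF of Macf1, a crosslinker of actin and microtubules, and a 13-codon ORF of Nsd1, a histone methyltransferase. Macf1 had a main ORF of 5390 codons that scored 626, whereas the longest listed ORF of Nsd1 had 217 codons and began 16607 bases into its transcript. That ORF need not be the annotated coding sequence of Nsd1, which was not tested, so the place of the 13-codon ORF relative to it is not given by the list.

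The next highest scores lay in genes of various functions. Golga3, a Golgi protein, had a 13-codon ORF of score 989 only 8 bases from its main start. In Btg1, an antiproliferative factor, a 23-codon ORF scored 988, against 904 for its 171-codon main ORF. In Azi2, an adaptor of the kinase TBK1, a 27-codon ORF on chromosome 9 (117949897 to 117949980) scored 987. Plekho2 combined a 12-codon upstream ORF of score 987 with a main ORF at the maximum of 991. Selenow, a selenoprotein, had a 17-codon ORF of score 990 next to a longest listed ORF of only 22 codons. The 22-codon ORF need not be the annotated coding sequence of Selenow, which was not tested. The place of the 17-codon ORF relative to that sequence is thus not given by the list. Selenoproteins read an in-frame UGA codon as selenocysteine.

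Most upstream ORFs scored below the main ORF of their own family. Above it were 372 of 1125 (33.1%, interval 30.3 to 35.9), beside 34.1% of upstream ORFs of any length, and 2 had the same score. The median difference from the own main ORF was -80, with 215 ORFs at least 100 above and 524 at least 100 below. The scores of an upstream ORF and its main ORF were nearly unrelated, with a Spearman's correlation of 0.02 and a Pearson's r of 0.01 over the 1125 pairs, which share families. Where the main ORF scored 900 or more, 45 of 466 upstream ORFs were above it (9.66%). Where it scored less, 327 of 659 were (49.6%). The split uses the main score itself, so with nearly unrelated scores a lower share in the first group follows by construction. The median upstream score was 778 and 769 in these groups.

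**Figure D3:**
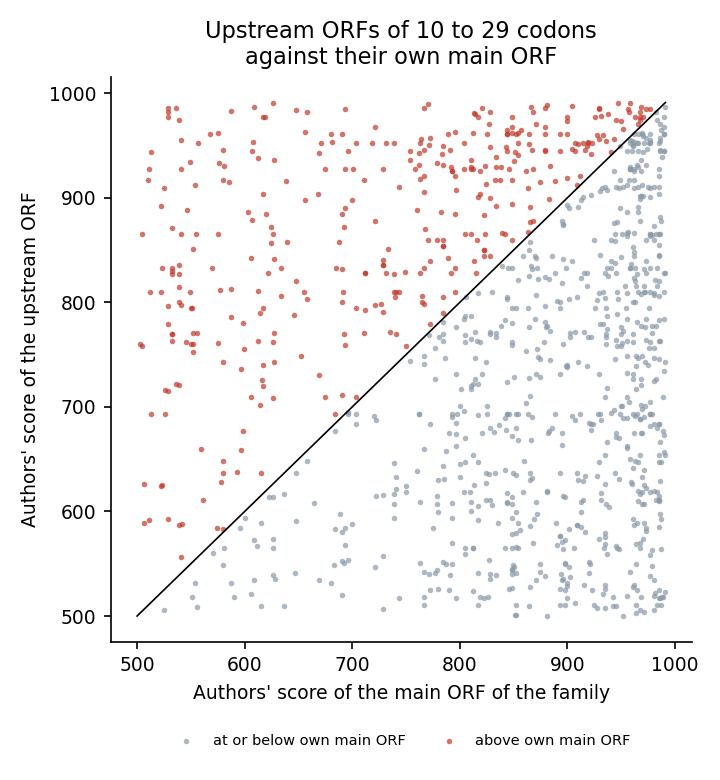
Authors' score of each upstream ORF of 10 to 29 codons (y axis) against that of the main ORF of its family (x axis), with the line of equal scores. Red points are the 372 ORFs above their own main ORF and grey points the 753 at or below it, and the points spread over both scores without a visible trend.

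The extreme differences named genes of several kinds. Letm1, a mitochondrial inner membrane protein, had a 10-codon ORF of score 944 upstream of a 738-codon main ORF of score 513, a difference of 431. Larger differences, up to 457, were found in an assembled transcript with no gene name, in the interleukin 7 family (15 codons, score 986, on a transcript without its 49-codon longest ORF) and in the long noncoding RNA Morrbid, with scores of 529 to 539 for the longest ORFs. The 49-codon ORF of the interleukin 7 family may not be the annotated coding sequence, so this difference need not be one from Il7 itself. On the other side, Tmem50b (10 codons, score 511) had the lowest difference, -476, and Zbp1, a sensor of Z-form nucleic acids, had a 22-codon ORF of score 518 against 988.

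Spacers to the main start were short in most transcripts. The listed transcript held the main start for 1073 of 1125 ORFs (95.4%, interval 94.0 to 96.5), and the other 52 have no distance. The median spacer between stop codon and main start was 115 bases (interval 103 to 124), with quartiles of 50 and 251 and a range of 1 to 9643. Spacers under 10 bases were found for 58 ORFs (5.41%), 10 to 49 for 204, 50 to 99 for 230, 100 to 199 for 241, 200 to 499 for 246, 500 to 999 for 69 and 1000 or more for 25 (2.33%). Median scores in these 7 classes ran from 743 to 795 in no order of distance, and Spearman's correlation between score and spacer was -0.03. Median spacers were 105.5 bases for shorter and 125 for longer upstream ORFs, with intervals of 97 to 118 and 108 to 137 that overlap that of the 10 to 29 codon class.

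The shortest spacers were 1 base, in 4 genes, of which 3 are described here. In Socs1, a feedback inhibitor of cytokine receptor kinases, the ORF had 10 codons at chromosome 16, 10784966 to 10784998, and its score of 943 stood 274 above the 212-codon main ORF. Il1rl2, the interleukin 36 receptor, had a 29-codon ORF of score 731 that ended 1 base before the main start, and an additional 19-codon ORF of score 986 that stopped 78 bases before it. Denr, a factor of reinitiation after upstream ORFs, had a 20-codon ORF of score 654 before a main ORF of score 991. Short spacers thus occurred with high and with low scores alike.

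Upstream ORFs took all 3 frames about equally. The frame of the main ORF was used by 363 of 1073 (33.8%, interval 31.0 to 36.7), and the other frames by 353 and 357. Median scores were 777 in the main frame and 770 in the others. Shorter and longer upstream ORFs were in the main frame in 36.9% and 36.3%, with intervals that overlap.

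The ORFs began a median of 254 bases (interval 236 to 273) from the transcript start, with quartiles of 120 and 542, in leaders with a median of 500 bases. A leader is the part of a transcript before the main start. The start lay at a median of 0.589 of the leader's length, beside 0.646 for upstream ORFs under 10 codons and 0.427 for those of 30 to 99. A longer ORF has to start earlier to end before the main start, so part of this order follows from the definition. Exon 1 held the start of 691 ORFs (61.4%) and exon 2 that of 271 (24.1%). A splice junction lay between stop codon and main start in 440 of 1073 (41.0%).

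An intron split the coding span of 248 of the 1125 ORFs (22.0%, interval 19.7 to 24.6). The share was 4.92% for shorter and 39.3% for longer upstream ORFs, and within the range it ran from 16.2% at 10 to 14 codons to 29.1% at 25 to 29. Only Btbd7 had such an ORF in 3 exons, with 28 codons and a score of 961 over chromosome 12, 104078462 to 104116615. The 11-codon ORF of Syk, the kinase of immunoreceptor signalling, had 2 exons, at chromosome 13, 52678970 to 52706195, with a score of 957 and a spacer of 12 bases to the 629-codon main ORF of score 973.

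Some of the ORFs had a stop codon in common with another start. A stop was shared with a listed ORF of another start by 274 of 1125 (24.4%, interval 21.9 to 27). The share over all ORFs of the list is not given here, so this one cannot be called high or low. The 851 ORFs with a stop of their own had a median score of 803 (interval 786 to 810). Among those that shared it, the median was 663.5 (630 to 705) for the 106 outermost starts and 720 (682 to 752) for the 141 innermost. For the other 27 it was 709 (616 to 780). These lay in between or had the same length as the other ORF at the stop. All 3 medians lay below that of ORFs with their own stop. At 71 stops with several starts of 10 to 29 codons, the longest ORF scored above the shortest 33 times and below it 38 times. A pair in Pira1, both of 14 codons, was counted here although neither was longer. Azin1, an inhibitor of antizyme in polyamine synthesis, had starts of 18 and 17 codons next to each other at 1 stop (chromosome 15, 38444260 to 38444316), with scores of 876 and 956, and 287 bases to the main start.

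Most families had 1 such ORF. Of the 855 families, 668 had 1, 137 had 2, 29 had 3 and 21 had 4 or more, and 457 ORFs (40.6%) shared their family with at least 1 other. The spans of 188 ORFs (16.7%) overlapped an upstream ORF with another stop codon. Upstream ORFs under 10 codons occurred in 215 of the 855 families (25.1%) and in 6.01% of families without a 10 to 29 codon ORF, and those of 30 to 99 codons in 203 (23.7%) and in 3.22%. ORFs that run from upstream over the main start in another frame were in 80 (9.36%). None of the 3 other kinds was listed in 461 families (53.9%). The 855 families also had longer main leaders than the other families, with medians of 444 and 170 bases. The part of leader length in these shares was not tested. In 136 families with several stops, the ORF farthest from the main start scored higher 71 times and the nearest 63 times.

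St3gal1, a sialyltransferase, had the most, with 8 ORFs at 5 stop codons and scores of 578 to 962. The highest of these was a 12-codon ORF that stopped 676 bases before the main start, and its 27-codon ORF nearest to the main start scored 759. Bmpr2, a receptor of bone morphogenetic proteins, had 5 ORFs of 13 to 24 codons at 5 stops. From the farthest to the nearest, their spacers were 789, 554, 425, 308 and 190 bases and their scores 945, 912, 809, 866 and 763. Zbtb20, a transcription repressor, also had 5, and its 10-codon ORF of score 933 lay nearest to the main start. Hivep3 had 5 at 4 stops, with scores of 504 to 952. The highest-scoring ORF thus stopped 676, 789 and 619 bases before the main start in St3gal1, Bmpr2 and Hivep3. In Zbtb20 it stopped 120 bases before the main start, and an ORF of score 860 stopped 344 bases before it. The farthest ORF of St3gal1, at 818 bases, scored 607.

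Nlrc5, the activator of MHC class I genes, had 6 ORFs at 4 stops before its 1932-codon main ORF of score 767. A 20-codon ORF over 2 exons, 378 bases before the main start, scored highest at 905. Those of 23 and 13 codons at the stop 65 bases before it scored 798 and 749, and the lowest was a 12-codon ORF at 511.

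A longer leader went with a larger share of genes that had such an ORF. Of 10182 named genes, 824 had 1 or more (8.09%, interval 7.57 to 8.64). The share was 0.321% of genes with a main leader under 50 bases, 1.01% at 50 to 99, 3.90% at 100 to 199, 8.34% at 200 to 299, 13.5% at 300 to 499 and 22.2% at 500 or more (353 of 1587). Leaders were measured on the main ORF's own listed transcript, which can differ from that of the upstream ORF. Families with such an ORF had a median leader of 444 bases and a median main score of 871, against 170 bases and 929 in the other families. Their main ORFs had a median of 529 codons against 429.

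**Figure D4:**
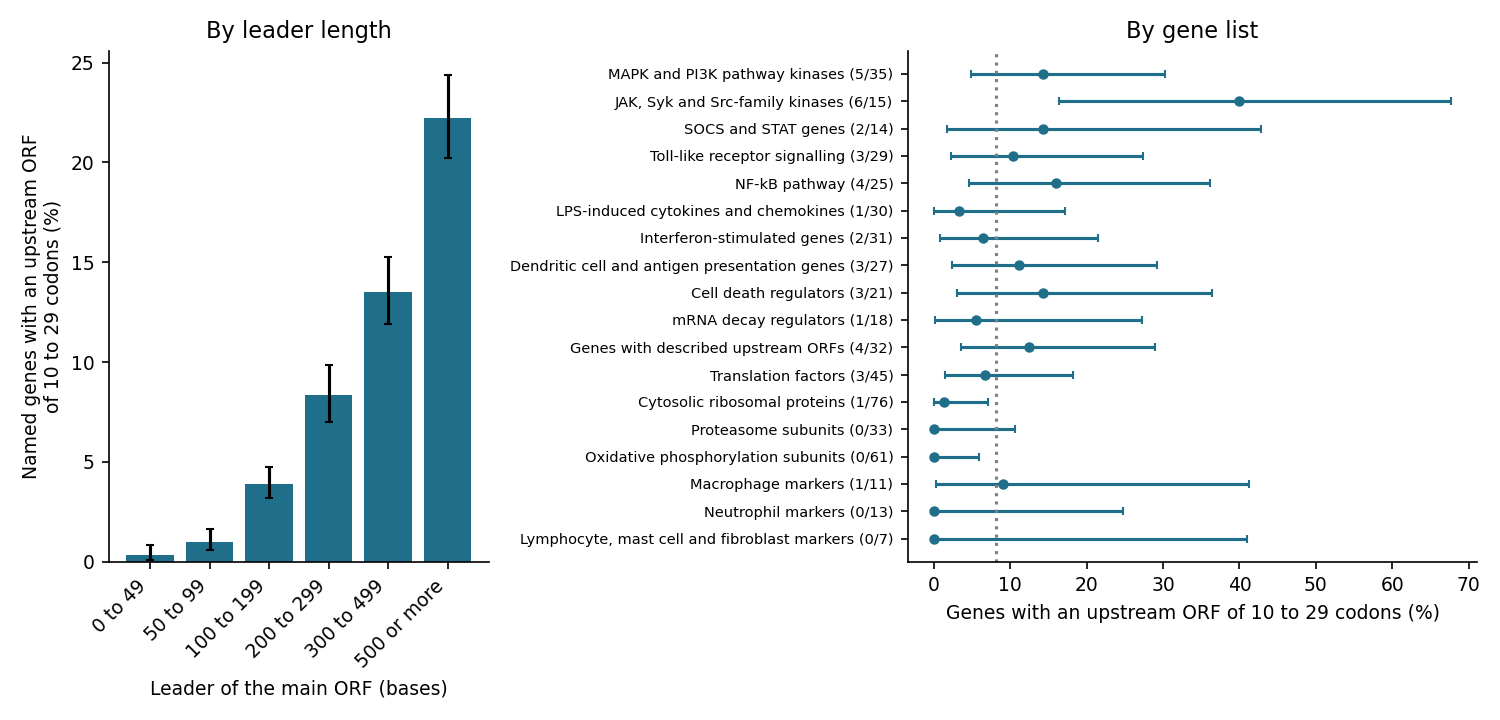
Left, percent of named genes with an upstream ORF of 10 to 29 codons (y axis) by leader length of the main ORF in bases (x axis), from 0.321% under 50 bases to 22.2% at 500 or more. Right, the same percent (x axis) for each gene list, with counts in brackets and a dotted line at 8.09% for all named genes. Bars and lines are 95% Clopper-Pearson intervals.

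Cytoplasmic tyrosine kinases had the largest share among 18 gene lists, with 6 of 15 genes (40%, interval 16.3 to 67.7) beside 8.09% of all named genes. It was picked as the highest of 18 shares, and the lists were chosen with earlier results of these data known. The interval allows for neither, so the share is a description only. The list, named JAK, Syk and Src-family here, also held related kinases of other families. The 6 genes were Jak2, Tyk2 and Syk and the related Btk, Csk and Fes, with no Src-family kinase among them. The median main leader of the 15 genes was 297 bases, against 184 for all named genes. Tyk2, a kinase of interferon and interleukin 12 receptors, had a 28-codon ORF at chromosome 9, 20933050 to 20933136, whose score of 986 stood 219 above the 1184-codon main ORF. Btk, the kinase downstream of B cell and Fc receptors, had a 28-codon ORF of score 873. Jak2, the kinase of GM-CSF and other cytokine receptors, had ORFs of 25 and 13 codons with a common stop and scores of 816 and 739. Csk, the inhibitory kinase of the Src family, had a 10-codon ORF of score 863 that stopped 24 bases before the main start. In Fes, 3 of 4 such ORFs stopped 5044 or 5309 bases before the main start and the remaining one lay on a transcript without it, so their place in Fes itself was not tested. The share rested on ORFs near the limits, as lengths of 12 to 27 codons left 2 of the 15 genes, Jak2 and Fes (13.3%, beside 6.86% of all named genes). With only ORFs of score 900 or more in the list and classes assigned again, the share was 15.4% (interval 1.92 to 45.4), beside 2.12%. That interval includes the 2.12%, and the main ORF of a family can differ at this setting.

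Kinases of the MAPK and PI3K pathways had such ORFs in 5 of 35 genes (14.3%, interval 4.81 to 30.3). This interval includes the 8.09% of all named genes. Akt2, a kinase downstream of PI3K, had 4 of 10 to 17 codons, 21 to 162 bases before the 481-codon main ORF. Their scores were 615 to 855, all below the 985 of the main ORF. The leader on their listed transcript had 12513 bases, and whether it is the usual leader of Akt2 was not tested. Pik3r1, the regulatory subunit of PI3K, had a 27-codon ORF of score 944, 254 bases before the main start. Pik3ca, a catalytic subunit, had a 24-codon ORF over 2 exons with a score of 609. Map2k3, a kinase of p38, had starts of 28 and 14 codons at 1 stop, scoring 668 and 835. Mapkapk3, a target of p38, had a 16-codon ORF of score 810, above its main ORF of score 512. Map3k3 had 4 upstream ORFs, none of them of 10 to 29 codons.

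Toll-like receptor genes and their signalling partners had such ORFs in 3 of 29 genes (10.3%, interval 2.19 to 27.4). The share of all named genes, 8.09%, lies in that interval. Tlr3, the receptor of double-stranded RNA, had 4 ORFs at 2 stops, 40 and 128 bases before the 905-codon main ORF. They had 14, 15, 16 and 26 codons with scores of 787, 718, 559 and 774, all below the main score of 937. Tlr13, a receptor of bacterial ribosomal RNA, had an 18-codon ORF of score 760 that stopped 27 bases before the main start. Tirap, an adaptor of Toll-like receptors 2 and 4, had an 18-codon ORF of score 589 over 2 exons.

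Of 25 genes of the NF-kB pathway, 4 had such an ORF (16.0%, interval 4.54 to 36.1), beside 8.09% of all named genes. Ikbkg, the regulatory subunit of the IkB kinase, had a 17-codon ORF of score 944, 35 bases before the main start. Tnip1, a partner of the A20 feedback inhibitor, had an 18-codon ORF of score 961 on a transcript that does not hold its main start. Otud7b, a deubiquitinase, had a 13-codon ORF of score 767. Nfkb2 counted through a family on the strand opposite to the RefSeq gene, with a longest ORF of 184 codons, so its ORFs of 11 and 18 codons lie on an antisense transcript by that annotation. Nfkbia, the IkB alpha inhibitor, had 1 ORF in the list, its main ORF of 314 codons.

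SOCS and STAT genes had them in 2 of 14 (14.3%, interval 1.78 to 42.8), Socs1 among them. Regulators of cell death had them in 3 of 21 (14.3%, interval 3.05 to 36.3). Both intervals include the 8.09% of all named genes. Cflar, an inhibitor of caspase 8, had starts of 12 and 11 codons at 1 stop 43 bases before the main start, with scores of 633 and 675, and a 29-codon ORF of score 619. Bak1, an effector of mitochondrial permeability, had a 12-codon ORF of score 810, and the 2 ORFs of its inhibitor Bcl2 scored 500 and 619, at 485 and 827 bases before the main start.

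Cytokine, interferon-stimulated and antigen presentation genes had such ORFs in shares whose intervals include the 8.09% of all named genes. They were in 1 of 30 cytokine and chemokine genes (3.33%, interval 0.0844 to 17.2), which was Il15, a growth factor of natural killer and memory T cells, with ORFs of 23 and 16 codons and scores of 772 and 540. Interferon-stimulated genes had them in 2 of 31 (6.45%, interval 0.791 to 21.4), Mx1 with 28 codons and a score of 770, and Zbp1. Among dendritic cell and antigen presentation genes, 3 of 27 (11.1%, interval 2.35 to 29.2) had them. These were Nlrc5, H2-DMb1 and Ly75. The H2-DMb1 ORF had 14 codons and scored 564, against 987 for the main ORF. The leader on its listed transcript had 2967 bases, and whether it is the usual leader of H2-DMb1 was not tested. Ly75 counted through a family on the strand opposite to the RefSeq gene, with a longest ORF of 51 codons. In all, 8 of 661 families with an entry in the RefSeq promoter table lay on the other strand (1.21%).

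Regulators of mRNA decay had them in 1 of 18 genes (5.56%, interval 0.141 to 27.3), Cnot1, the scaffold of the CCR4-NOT deadenylase. Its 13-codon ORF scored 952, above the 2381-codon main ORF at 739, and stopped 126 bases before it. Translation factors had them in 3 of 45 (6.67%, interval 1.40 to 18.3). For both lists the interval includes the 8.09% of all named genes. Eif4g2, a homologue of eIF4G that lacks the site for the cap-binding protein, had a 16-codon ORF of score 931 (chromosome 7, 118226448 to 118226498) and a main ORF of score 762. Eif4g3 had a 21-codon ORF of score 680 over 2 exons, and Denr the ORF with the 1-base spacer.

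Among all named genes, 8.09% had an upstream ORF of 10 to 29 codons. Genes with upstream ORFs described in earlier work had one in 4 of 32 (12.5%, interval 3.51 to 29). Besides Azin1 and Mief1 these were Ibtk, a substrate receptor of a ubiquitin ligase, with a 19-codon ORF of score 828, and Tmem184c, with a 14-codon ORF of score 701 and a spacer of 17 bases. Atf4, Ddit3 and Ppp1r15a, stress response genes known for upstream ORFs, and Atf5 had longest listed ORFs of 59, 34, 26 and 66 codons. The definition then takes these short ORFs as main ORFs, so the 26-codon ORF of Ppp1r15a, with a score of 953, is not counted although it has a length in the range. A main ORF under 100 codons was found in 60 of the 855 families (7.02%) and in 5.22% of the others.

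Housekeeping complexes had few or none, beside 8.09% of all named genes, and the proteasome interval includes that share. Cytosolic ribosomal proteins had such an ORF in 1 of 76 genes (1.32%, interval 0.0333 to 7.11), proteasome subunits in 0 of 33 (upper bound 10.6%) and oxidative phosphorylation subunits in 0 of 61 (upper bound 5.87%). The gene was Rps12, with starts of 22, 25 and 29 codons at 1 stop, 9 bases before the 132-codon main ORF of score 990, and scores of 784, 657 and 673. The median leaders of these 3 lists were 99.5, 112 and 100 bases, all shorter than the 184 bases of all named genes. With only families whose leader had 100 bases or more, a setting chosen after seeing the data, the shares were 2.63%, 0% and 0% beside 11% of all named genes, with upper bounds of 13.8%, 18.5% and 11.2%. At that setting all 3 intervals included the share of all named genes. The part of leader length in these counts was not tested further.

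Macrophage, neutrophil and other markers were counted because the culture could hold such cells. The counts were 1 of 11 macrophage markers, C1qc with 12 codons and a score of 800, 0 of 13 neutrophil markers (upper bound 24.7%) and 0 of 7 lymphocyte, mast cell and fibroblast markers (upper bound 41.0%). These intervals are too wide to set the lists apart from all named genes.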

How the data were processed

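Per the labels' protocols, ribosome-protected fragments of 28–34 nucleotides were sequenced. The submitters' processing notes name Bowtie2, TopHat and mm9, and no source used here names the ORF caller or transcript models. Each ORF of the deposited list comes with exon blocks, its span and a score set by the authors, used as deposited. No line scores under 500, so presence and score can move with expression and depth. ORF spans and positions are those of the deposited list, counted from 1. Family names were matched to RefSeq symbols (GRCm38.p6): 9446 directly, 127 without a numeric suffix, 659 by an older name, and 186 not. Shares have exact Clopper-Pearson intervals, and medians have binomial order-statistic intervals, both at 95%, with scipy 1.17.1 in Python 3.11.15. All gene list entries, 563 in 18 lists, matched a symbol. The class definition and lists were chosen with earlier results of these data known. Genes were named by score, number of stops, spacer, difference from the main ORF, exon number, list membership and a list of 24 genes, of which the text names a part. The class rule was tested on simulated data, where all 577 simulated upstream ORFs of this length were found with the true spacer and frame.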

Additional observations from a re-analysis of the deposited data

How the results depend on the processing

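With 28 values and 9 alternatives, 252 values were recomputed. Of these, 225 stayed within the interval of the first value, or within 1.5 times a count, and 27 moved. Gene list shares made up 162 of the 252, and 150 of them stayed. Their intervals are wide, and 1 ORF per stop codon cannot change the share of genes, so these counts do not measure stability. With ORFs of score 900 or more and classes assigned again, 160 ORFs were left, the median score was 952, 38.8% scored above their main ORF, the median spacer was 94 bases, 1.88% shared a stop and 2.12% of named genes had one. The share then was 15.4% for the JAK, Syk and Src-family list, with an interval of 1.92 to 45.4. It was 0% for Toll-like receptor signalling, cytokines and chemokines, interferon-stimulated genes, dendritic cell genes, cell death regulators, translation factors, ribosomal proteins and macrophage markers. When the main ORF was the one with the highest score, the median score was 724, 0% scored above the main ORF by construction, the median spacer was 101 bases, 5.78% of named genes had one, and the mRNA decay list had 0%. With 1 ORF per stop codon, 19.1% shared a stop with another listed ORF. Keeping only ORFs on a transcript with the main start and within 1000 bases of it gave 100% on such transcripts by construction. Lengths of 12 to 27 codons gave 6.86% of named genes and 13.3% of the JAK, Syk and Src-family list, with fewer ORFs by construction. Leaders of 100 bases or more, added after seeing the data, gave 11% of named genes and 0% of macrophage markers. Leaving out families off the RefSeq strand, also added later, and main ORFs under 100 codons moved none of the 28 values. Without the families off the RefSeq strand, the NF-kB share was 12% after 16.0%. That of dendritic cell and antigen presentation genes was 7.41% after 11.1%, both within the wide first intervals. The planned check against RefSeq protein lengths was not run, as no protein table was used here. No paired analysis was possible because the list has no value per library. Other causes of these shifts were not tested. Depth per library is unknown, so its effect cannot be given.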

Other observations

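Receptors of cytokines and of the tumour necrosis factor family also carried upstream ORFs of 10 to 29 codons. These genes were chosen after their values were seen, and no list of receptors was counted. Tnfrsf14, a receptor of the ligand LIGHT, had an 18-codon ORF of score 974 that stopped 8 bases before its main ORF of score 983. Tnfrsf1a, the main receptor of TNF, had a 20-codon ORF of score 865, while its 454-codon main ORF scored 626. Tnfrsf9, a costimulatory receptor, had a 19-codon ORF of score 717 and a spacer of 9 bases. Il12rb2, a chain of the interleukin 12 receptor, had a 19-codon ORF of score 950 and Il6st, the shared signal chain of the interleukin 6 family, a 17-codon ORF of score 783. Cmklr1, the chemerin receptor, had a 12-codon ORF of score 982 that lay 206 bases before a main ORF of score 967. Cd180, a Toll-like receptor homologue, had a 29-codon ORF of score 682.

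Aim2, the sensor of cytosolic DNA in the inflammasome, had 4 ORFs at 3 stops, and their scores of 579, 526, 530 and 804 were all below the 935 of its 354-codon main ORF. Il18rap, a chain of the interleukin 18 receptor, had 3, with scores of 521, 709 and 842 against 606 for a 505-codon main ORF.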
